A study of Homo sapiens with 12 samples.

Results

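The BCL2 family genes described here are 10 genes that restrain or trigger mitochondrial apoptosis, measured in 2 human prostate cancer cell lines with and without nicotine. They were chosen by gene symbol, and every probe set annotated to exactly 1 of those symbols was taken. That gave 23 of the 22277 probe sets on the array. A probe set whose name ends in _s_at or _x_at can match more than 1 transcript. The anti-apoptotic members BCL2, BCL2L1, MCL1 and BCL2A1 held 13 probe sets, the effectors BAX and BAK1 held 3, and the BH3-only members BAD, BID, BIK and BCL2L11 held 7.

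LnCaP cells come from a lymph node metastasis of a prostate carcinoma and are androgen sensitive, and 22RV1 cells come from a xenograft of a prostate carcinoma that relapsed after castration. The 4 groups were LnCaP cells given 100 µM nicotine tartrate for 24 h, untreated LnCaP cells, 22RV1 cells given the same treatment, and untreated 22RV1 cells. Each group had 3 Affymetrix arrays, 12 in all, and no vehicle is named for the untreated cells. The labels do not say that replicates came from separate cultures, so the p-values reflect only how far these arrays scatter, and that scatter may be technical.

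Commitment to mitochondrial apoptosis is decided at the outer mitochondrial membrane. Anti-apoptotic members bind and hold back the effectors BAX and BAK1, which otherwise form pores that release cytochrome c. BH3-only members carry stress signals: they occupy the anti-apoptotic proteins or, as BID and BCL2L11 (BIM) do, also activate the effectors. Much of this control acts on the proteins, which were not measured here.

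Arrays of the same group correlated at 0.992 or more across all probe sets, and arrays of different lines at 0.933 or less. Prostate luminal markers (7 genes, 11 probe sets) had group means between 6.64 and 13.05 log2 units, whereas the basal markers KRT5 and KRT14 lay between 3.81 and 4.82 and the 5 leukocyte probe sets between 3.09 and 5.33. The 7 fibroblast probe sets ranged from 3.01 to 7.49, the highest of them a COL1A1 probe set in every group, and the 4 endothelial ones from 4.11 to 7.89, so both lists reached into the luminal range. Their part in the results was not tested. The 4 arrays numbered 3 stood apart from arrays 1 and 2. They carried 47.2% of the summed squared deviations from the group means, so counts are also given without them. In RNA from a whole culture, fewer cells expressing a gene and less RNA per cell cannot be told apart.

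Nicotine changed none of the 23 BCL2 family probe sets past the threshold in either line. A probe set was called at an adjusted p under 0.05, from limma's moderated two-sided test with Benjamini-Hochberg adjustment over all probe sets of the array. In LnCaP cells 0 of 23 were called, 0 had an unadjusted p under 0.05 and the smallest adjusted p was 0.486. Of all probe sets 105 were called (0.471%) and 10.6% had an unadjusted p under 0.05. In 22RV1 cells 0 of 23 were called, 0 had an unadjusted p under 0.05 and the smallest adjusted p was 0.982, while the array as a whole also gave 0 calls (0%) and 5.15% with an unadjusted p under 0.05. Log2 fold changes, nicotine over untreated, ran from -0.18 to 0.30 in LnCaP and from -0.11 to 0.25 in 22RV1 cells. The 95% confidence intervals reached from -0.58 to 0.77 in LnCaP and from -0.62 to 0.60 in 22RV1 cells, so changes smaller than those bounds remain possible for the least precise members. With the nicotine effect averaged over the lines, 0 of 23 were called and 3 had an unadjusted p under 0.05, all of them MCL1 probe sets. On the array 47 were called (0.211%) and 10.2% had an unadjusted p under 0.05, a share near that of the members. Tested for whether nicotine acted differently in the 2 lines, 0 of 23 were called and 1 had an unadjusted p under 0.05, beside 0 calls on the array (0%) and 6.08% with an unadjusted p under 0.05.

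**Figure D1:**
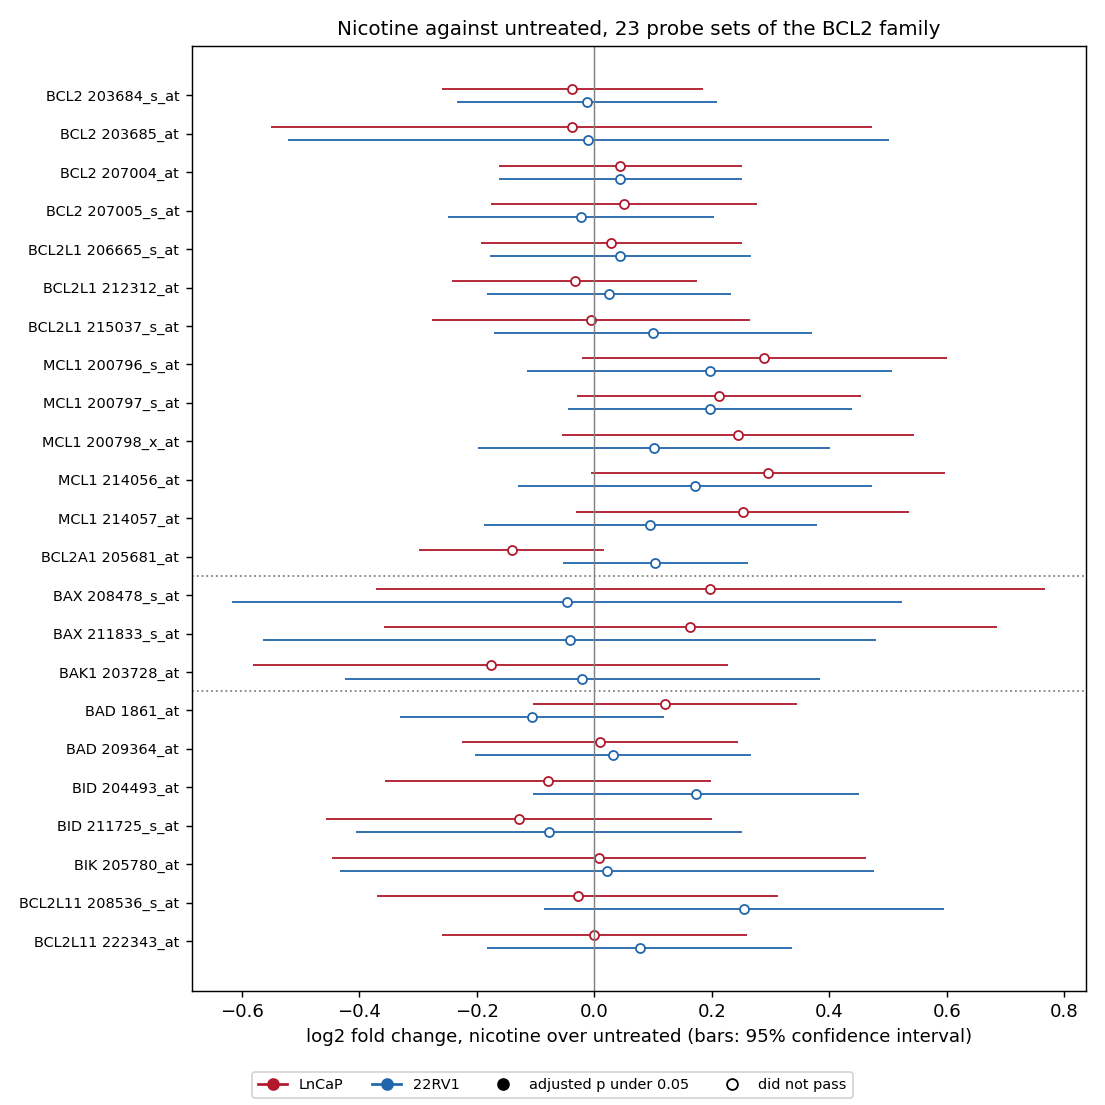
Log2 fold change, nicotine over untreated, of the 23 BCL2 family probe sets in LnCaP (upper point of each pair) and 22RV1 (lower point), with 95% confidence intervals. Dotted lines separate, from top to bottom, the anti-apoptotic members, the effectors and the BH3-only members. All points are open because 0 of 23 passed in either line, and the 5 MCL1 probe sets lie to the right of 0 in both.

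MCL1, a short-lived anti-apoptotic protein that binds BAK1 and BCL2L11, had positive estimates on all 5 probe sets in both lines, 0.21 to 0.30 in LnCaP and 0.10 to 0.20 in 22RV1 cells (log2). In 22RV1 cells 214057_at turned negative with array weights (-0.0056) and without nicotine replicate 3 (-0.037). On the brightest of them, 200797_s_at, the LnCaP arrays read 12.09, 12.12 and 11.82 log2 units with nicotine, against 11.95, 11.86 and 11.58 untreated. The groups overlapped in LnCaP because nicotine array 3 (11.82) lay below untreated arrays 1 and 2. Array 3 was the lowest in each of these LnCaP groups. In 22RV1 cells the same probe set read 12.11, 12.04 and 12.26 with nicotine, against 11.94, 11.94 and 11.94 untreated, and there the groups did not overlap. Its log2 fold change was 0.21 ± 0.11 (SE) in LnCaP, with an adjusted p of 0.562, and 0.20 ± 0.11 in 22RV1 cells, with an adjusted p of 0.982.

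Arrays with the same replicate number deviated together within a line, so they were also compared as pairs. MCL1 was higher in the nicotine array in 14 of 15 pair values in LnCaP and in 13 of 15 in 22RV1 cells, where the 5 probe sets of a pair report on the same RNA and are not independent. The probe sets 200796_s_at and 200797_s_at were higher in all 6 pairs, as were 1011 of the 22277 probe sets (4.54%). For the mean of the 5 probe sets, the log2 fold change was 0.26 ± 0.086 (SE) in LnCaP, with a 95% confidence interval of 0.071 to 0.447 and an adjusted p of 0.207 over 11963 genes in limma. In 22RV1 cells it was 0.15 ± 0.086, with an interval of -0.036 to 0.341 and an adjusted p of 0.960. With the replicate number as a block the adjusted p of that mean was 0.116 in LnCaP and 0.0934 for the average over both lines, so MCL1 did not pass there either. The difference between the lines in the nicotine effect was 0.11, with an interval of -0.16 to 0.37.

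**Figure D2:**
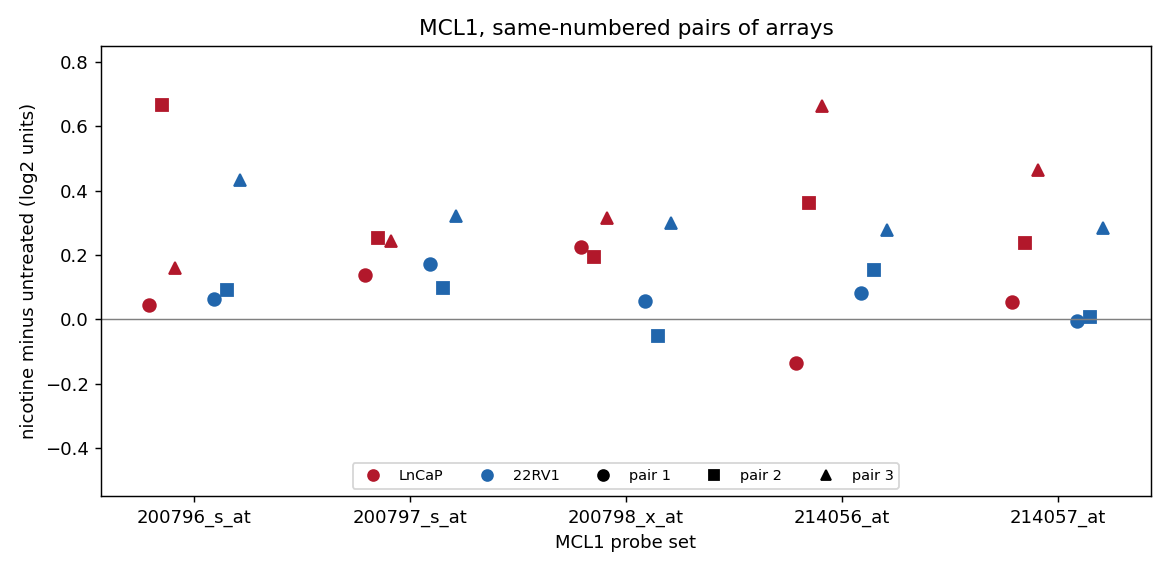
Difference between the nicotine and the untreated array of the same number, in log2 units, for each MCL1 probe set. Colours mark the line (LnCaP left, 22RV1 right within each probe set) and symbols the pair. Of the 30 values 27 lie above 0, and the largest are 0.67 for pair 2 of 200796_s_at and 0.66 for pair 3 of 214056_at, both in LnCaP.

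BCL2, the founding member, had 4 probe sets with log2 fold changes between -0.04 and 0.05 in LnCaP and between -0.02 and 0.04 in 22RV1 cells. BCL2L1, which encodes BCL-xL and its pro-apoptotic splice form BCL-xS, had 3 probe sets between -0.03 and 0.03 in LnCaP and between 0.02 and 0.10 in 22RV1 cells. BCL2L1 was among the best constrained: for the mean of its probe sets the 95% confidence interval was -0.19 to 0.18 in LnCaP and -0.13 to 0.24 in 22RV1 cells. BCL2A1, known chiefly from blood cells, read near the bottom of the scale, at 3.44 to 3.54 log2 units in nicotine-treated LnCaP against 3.56 to 3.66 in untreated LnCaP. In 22RV1 cells it read 3.46 to 3.59 with nicotine against 3.35 to 3.45 untreated. Neither pair of groups overlapped, the directions were opposite, and neither fold change passed (limma adjusted p = 0.550 in LnCaP and 0.999 in 22RV1).

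Among the pore-forming effectors, BAX 211833_s_at read 8.07, 8.17 and 8.41 in nicotine-treated LnCaP, against 7.92, 7.64 and 8.61 in untreated LnCaP. In 22RV1 cells it read 8.48, 8.68 and 9.33 with nicotine, against 8.78, 8.88 and 8.95 untreated. Array 3 was the highest of its group in all 4 groups, by 0.13 to 0.83 log2 units above the mean of the other two. The fold change was 0.16 ± 0.24 (SE, log2) in LnCaP and -0.04 ± 0.24 in 22RV1 cells. BAK1 read 7.41, 7.43 and 7.39 in nicotine-treated LnCaP, against 7.43, 7.50 and 7.82 in untreated LnCaP. The LnCaP groups did not overlap, and the untreated array 3 lay farthest out. The fold change of BAK1 was -0.18 ± 0.19 in LnCaP (limma adjusted p = 0.866) and -0.02 ± 0.19 in 22RV1 cells.

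The BH3-only members had 0 calls of 7 probe sets in either line. BCL2L11, an activator of BAX and BAK1, had the largest estimate of the family in 22RV1 cells, on 208536_s_at. This probe set read 4.94, 4.68 and 4.83 in nicotine-treated 22RV1, against 4.62, 4.58 and 4.48 in untreated 22RV1. The groups did not overlap, and the log2 fold change was 0.25 ± 0.16 (SE) with an adjusted p of 0.998. In LnCaP it gave -0.03 ± 0.16, and the second BCL2L11 probe set, 222343_at, gave 0.00 ± 0.12 in LnCaP and 0.08 ± 0.12 in 22RV1. BID, which caspase-8 cleaves to carry death-receptor signals to the mitochondrion, gave -0.08 and -0.13 on its 2 probe sets in LnCaP and 0.17 and -0.08 in 22RV1. BAD, which binds BCL2 and BCL-xL when it is dephosphorylated, gave 0.12 and 0.01 in LnCaP and -0.11 and 0.03 in 22RV1 cells. BIK, a BH3-only protein of the endoplasmic reticulum, gave 0.01 ± 0.21 in LnCaP and 0.02 ± 0.21 in 22RV1 cells.

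Over gene means, the log2 fold changes with nicotine in LnCaP ran from -0.14 for BCL2A1 to 0.26 for MCL1 among the anti-apoptotic members and from -0.18 for BAK1 to 0.18 for BAX among the pro-apoptotic ones. The median log2 fold change in LnCaP was -0.003 for the 6 pro-apoptotic members, 0.0006 for the 4 anti-apoptotic members and -0.002 for all 11963 genes. The anti-apoptotic median ran from -0.046 to 0.057 with 1 array left out, the ends without untreated LnCaP replicate 2 and without replicate 3. In 22RV1 cells it was 0.0007 for the pro-apoptotic members, 0.08 for the anti-apoptotic members and -0.007 for all genes. Of the 23 probe sets, 2 had groups that did not overlap in LnCaP (BCL2A1 and BAK1), beside 15.3% of all probe sets. In 22RV1 cells 3 did not overlap (MCL1 200797_s_at, BCL2A1 and BCL2L11 208536_s_at), beside 11.3%. With the replicate number as a block, 0 of 23 were called in either line, while the calls on the array were 847 in LnCaP, 0 in 22RV1 cells and 448 for the average. In that fit 5 of 23 had an unadjusted p under 0.05 in LnCaP, all 5 of them MCL1 probe sets, beside 17.4% of all probe sets. In 22RV1 cells 2 had one (MCL1 200797_s_at and BID 204493_at), beside 10.4%, and for the average over both lines 5 had one, again the MCL1 probe sets, beside 17.5%. The smallest adjusted p of a member was then 0.159 in LnCaP and 0.414 in 22RV1 cells, and 0.0877 for the average over both lines (MCL1 200797_s_at).

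**Figure D3:**
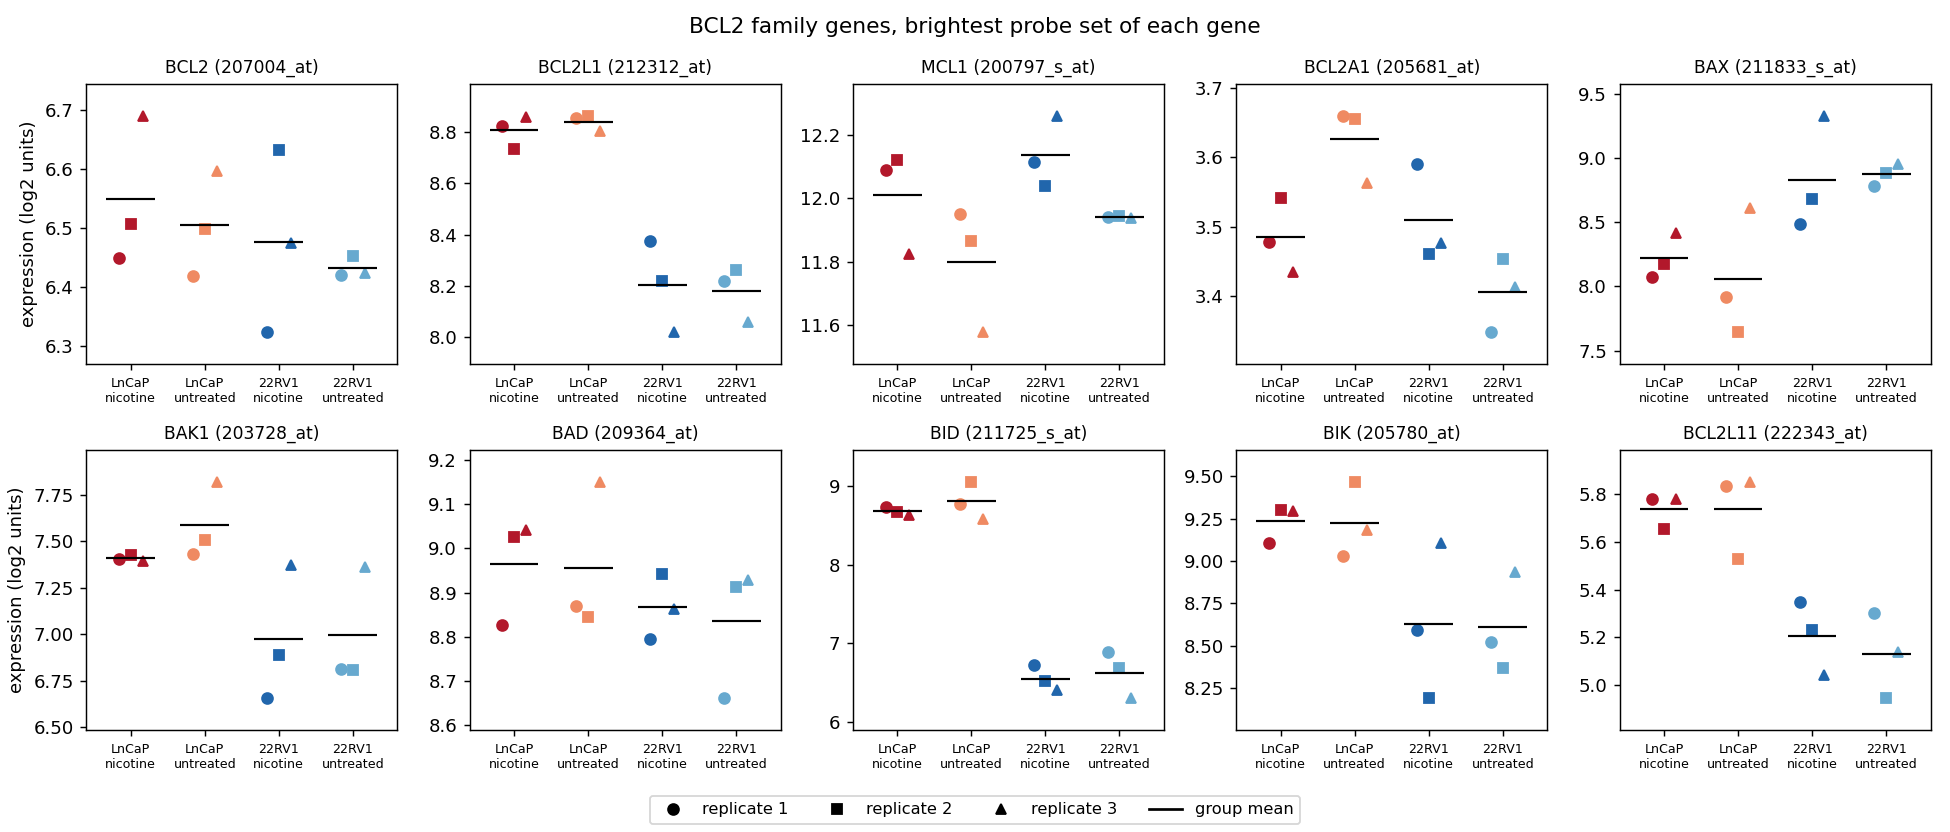
Expression (log2 units) of the 10 BCL2 family genes on each of the 12 arrays, for the probe set of each gene with the highest mean. Symbols are replicate numbers, bars are group means, and each panel has its own scale. BID shows the widest gap, with all LnCaP arrays at 8.58 or above and all 22RV1 arrays at 6.89 or below, and array 3 is the highest of its group in BAX.

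Between the lines several members were called, BID with the widest difference, whereas the MCL1 differences lay between -0.20 and 0.40 log2 units. In nicotine-treated cells 10 of 23 probe sets from 6 of the 10 genes were called between LnCaP and 22RV1, 9 higher and 1 lower in LnCaP. Of all probe sets 46.2% were called, 23.8% higher and 22.4% lower. In untreated cells 12 of 23 probe sets from 8 genes were called, 10 higher and 2 lower in LnCaP, beside 43.7% of all probe sets, 22.8% higher and 20.9% lower. The total shares called were near those of the array, while by direction the members held more higher and fewer lower calls than the array, a difference that was not tested. The 10 higher calls in untreated cells came from 6 genes, so they are not 10 separate results. The arrays of the 2 lines did not overlap for 13 of 23 probe sets in treated cells, beside 55.8% of all probe sets, and for 13 of 23 in untreated cells, beside 52.3%. Without the arrays numbered 3, the counts of calls were 12 in treated and 12 in untreated cells. Without 22RV1 nicotine replicate 2 the count in treated cells was 6. The array's share called in these 2 settings is not given, so these counts show only how the members' calls moved. The calls of BID, of BCL2L1 and of BCL2L11 222343_at held with any 1 array left out. Those of BAX, BAK1, BIK, BCL2A1 and BCL2 203685_at, and in treated cells those of MCL1 214056_at and BCL2L11 208536_s_at, were lost without 1 or another array.

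BID had the widest difference of the family. On 204493_at it read 8.13, 7.99 and 7.87 log2 units in nicotine-treated LnCaP, against 5.76, 5.48 and 5.62 in nicotine-treated 22RV1. In untreated cells it read 8.26, 8.13 and 7.84 in LnCaP, against 5.64, 5.31 and 5.38 in 22RV1. Every LnCaP array lay more than 2 log2 units above every 22RV1 array. The log2 difference, LnCaP minus 22RV1, was 2.38 ± 0.13 (SE) in treated cells, a 5.20-fold higher signal (limma adjusted p = 2.08e-08), and 2.63 ± 0.13 in untreated cells, 6.20-fold (adjusted p = 9.13e-09). The second BID probe set, 211725_s_at, gave 2.13 ± 0.15 in treated and 2.18 ± 0.15 in untreated cells, although array 3 was its lowest array in all 4 groups. Ordered by mean level, the BID groups ran untreated LnCaP, treated LnCaP, then the 22RV1 groups, and within a line the neighbours did not differ past the test.

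BCL2L11, the other activator, was higher in LnCaP on both probe sets. On 208536_s_at untreated LnCaP read 5.42, 4.995 and 5.73, against 4.62, 4.58 and 4.48 in untreated 22RV1, and the groups did not overlap. The log2 difference there was 0.54 ± 0.16 (SE) in treated cells (limma adjusted p = 0.0133) and 0.82 ± 0.16 in untreated cells (0.000947). The second, 222343_at, gave 0.53 ± 0.12 in treated and 0.61 ± 0.12 in untreated cells. BIK read 9.03, 9.47 and 9.18 in untreated LnCaP, against 8.52, 8.37 and 8.93 in untreated 22RV1. These groups did not overlap, and the difference was 0.60 ± 0.21 in treated cells (adjusted p = 0.0317) and 0.62 ± 0.21 in untreated cells (0.0299). Neither BAD probe set was called, with differences of 0.25 and 0.10 in treated and 0.02 and 0.12 in untreated cells.

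The effectors BAX and BAK1 differed in opposite directions. In treated cells the BAX differences were -0.61 ± 0.24 and -0.37 ± 0.26 (SE, log2), and neither passed (limma adjusted p = 0.0553 and 0.273). BAX 211833_s_at was lower in untreated LnCaP, at 7.92, 7.64 and 8.61, than in untreated 22RV1, at 8.78, 8.88 and 8.95. LnCaP array 3 lay close to the 22RV1 arrays, and the difference was -0.81 ± 0.24 (SE, log2; limma adjusted p = 0.0149). The second BAX probe set, 208478_s_at, gave -0.62 ± 0.26 and did not pass (adjusted p = 0.0762). BAK1 gave 0.44 ± 0.19 in treated cells without passing (0.0746) and was higher in untreated LnCaP by 0.59 ± 0.19 (0.0208). That BAX and BAK1 passed in untreated and not in treated cells does not show that the gap changed with nicotine: the tested change of the gap was 0.21 ± 0.34 for BAX 211833_s_at and -0.16 ± 0.26 for BAK1, with adjusted p of 0.997 for each.

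Of the anti-apoptotic members, BCL2L1 was higher in LnCaP on all 3 probe sets in both conditions. On the brightest, 212312_at, the arrays read 8.83, 8.73 and 8.86 in nicotine-treated LnCaP, against 8.38, 8.22 and 8.02 in nicotine-treated 22RV1. In untreated cells they read 8.85, 8.86 and 8.80 in LnCaP, against 8.22, 8.26 and 8.06 in 22RV1. The groups were clear of each other in both conditions, and the log2 difference was 0.60 ± 0.095 (SE) in treated cells (limma adjusted p = 0.000211) and 0.66 ± 0.095 in untreated cells (0.000112). The mean of the 3 probe sets differed by 0.71 ± 0.084 in treated and by 0.77 ± 0.084 in untreated cells.

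BCL2 depended on the probe set. On 203685_at it was lower in LnCaP, with log2 differences of -0.69 ± 0.23 (SE) in treated cells (limma adjusted p = 0.0293) and -0.66 ± 0.23 in untreated cells (0.0372). The treated groups overlapped, at 5.33, 4.59 and 4.64 in LnCaP against 5.48, 5.99 and 5.17 in 22RV1, and the untreated groups did not. The other 3 BCL2 probe sets lay between -0.03 and 0.11 in treated cells and between -0.01 and 0.07 in untreated cells, and none was called. The mean of the 4 gave -0.14 ± 0.086 in untreated cells with an adjusted p of 0.210. MCL1 had 1 of 5 probe sets called in treated cells, 214056_at, at 0.40 ± 0.14 (0.0307), although its groups overlapped. In untreated cells 0 of 5 were called, with differences from -0.20 to 0.28. BCL2A1 gave -0.02 ± 0.07 in treated cells and was called in untreated cells at 0.22 ± 0.07 (0.0259), at a mean signal under 4.83, among the dimmest of the array.

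**Figure D4:**
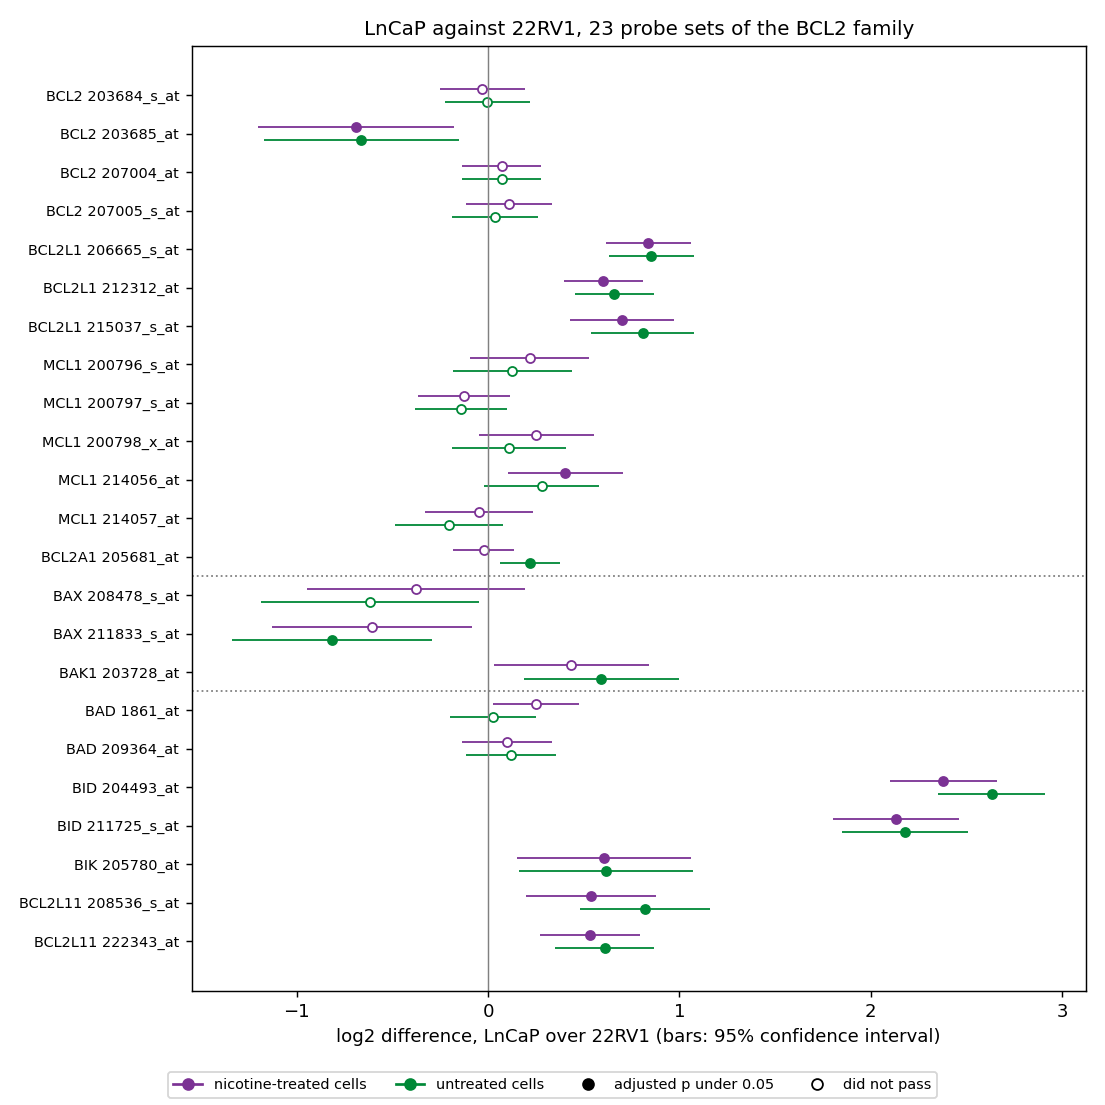
Log2 difference, LnCaP over 22RV1, of the 23 BCL2 family probe sets in nicotine-treated (upper point) and untreated cells (lower point), with 95% confidence intervals. Filled points passed an adjusted p under 0.05. Dotted lines separate the anti-apoptotic members, the effectors and the BH3-only members. BID lies beyond 2 log2 units on both probe sets, and BAX lies left of 0 on both. The 5 MCL1 probe sets lie between -0.20 and 0.40, and 214056_at is filled in treated cells.

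Over gene means, the median difference in treated cells was 0.49 for the 6 pro-apoptotic members, 0.06 for the 4 anti-apoptotic members and 0.05 for all genes. In untreated cells it was 0.60 for the pro-apoptotic members, 0.13 for the anti-apoptotic members and 0.05 for all genes. The anti-apoptotic median depended on the setting: in treated cells it was 0.12 with median centring, 0.14 without the dimmest probe sets and 0.022 to 0.082 with 1 array left out, the ends without 22RV1 nicotine replicate 2 and without replicate 3. In untreated cells it was 0.19 with centring, 0.034 without the dimmest probe sets and 0.077, the lowest with 1 array left out, without untreated LnCaP replicate 1. Median centring shifted the differences of all genes alike, and leaving out the dimmest probe sets removed BCL2A1 from the list. Of the pro-apoptotic genes BAX alone had a negative mean difference in either condition.

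Promoter sequences are shown for the 2 genes at the ends of the range between the lines, BID and BAX, and for BCL2L11, the second activator. Each is 300 bases of the RefSeq table on GRCh38.p14, from 250 bases before the transcript start to 50 after it, written 5′ to 3′ on the gene's strand. The table matched 8 of the 10 members with 14 promoters. MCL1 and BIK had no match. Capitals mark the E-box CACGTG, which reads the same on both strands, and the GC box GGGCGG or its reverse complement CCGCCC. BID has 5 promoters in the table, and the one shown, at chr22:17774420-17774719 on the minus strand, was picked for its GC boxes after they were seen. BAX lies at chr19:48954625-48954924 on the plus strand and BCL2L11 at chr2:111120664-111120963 on the plus strand.
BAX: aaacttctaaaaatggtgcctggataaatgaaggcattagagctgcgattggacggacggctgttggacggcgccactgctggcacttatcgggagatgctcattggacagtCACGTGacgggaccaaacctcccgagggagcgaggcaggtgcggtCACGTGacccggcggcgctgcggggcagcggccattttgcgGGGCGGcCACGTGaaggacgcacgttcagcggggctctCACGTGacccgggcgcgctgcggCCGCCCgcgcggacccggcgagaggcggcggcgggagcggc
BID: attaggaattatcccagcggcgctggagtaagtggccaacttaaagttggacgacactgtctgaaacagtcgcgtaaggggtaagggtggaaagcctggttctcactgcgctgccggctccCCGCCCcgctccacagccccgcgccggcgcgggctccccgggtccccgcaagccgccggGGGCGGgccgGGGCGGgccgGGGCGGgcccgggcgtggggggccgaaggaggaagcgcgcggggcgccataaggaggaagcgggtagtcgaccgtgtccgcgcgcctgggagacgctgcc
BCL2L11: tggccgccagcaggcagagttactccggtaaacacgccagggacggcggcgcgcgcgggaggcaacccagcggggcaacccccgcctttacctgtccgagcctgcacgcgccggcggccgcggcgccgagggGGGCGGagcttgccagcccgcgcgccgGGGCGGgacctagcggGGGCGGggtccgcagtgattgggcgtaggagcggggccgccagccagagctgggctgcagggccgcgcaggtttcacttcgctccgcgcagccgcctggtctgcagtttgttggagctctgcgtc

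The BAX promoter held 4 E-boxes and 2 GC boxes, the BID promoter shown 0 E-boxes and 4 GC boxes, and the BCL2L11 promoter 0 E-boxes and 3 GC boxes. Of the 35116 promoters of this length, 7.26% held an E-box and 0.0142% held 4 or more. A GC box was held by 45%, 2 or more by 26.7% and 4 or more by 9.06%. The BID promoter at the outermost start of the gene, chr22:17774616-17774915, held none of either. Of the other 3 BID promoters, 2 held 1 E-box each, with 2 and 3 GC boxes, and 1 held 0 E-boxes and 4 GC boxes. Those first 2 windows overlap and hold the same E-box. The last overlaps the promoter shown and holds the same 4 GC boxes. These matches describe the letters in the window, and binding was not measured.

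The wider apoptosis pathway was described through 43 further genes, of which 35 were measured on 61 probe sets. The others were not analysed here. Nicotine gave 0 calls of 61 in LnCaP and 0 of 61 in 22RV1 cells by limma, beside 0.471% and 0% of all probe sets. Unadjusted p-values under 0.05 numbered 8 of 61 and 4 of 61, beside 10.6% and 5.15% of all probe sets. With the replicate block 1 of 61 was called in LnCaP: HRK 206863_x_at, a BH3-only gene, at 0.36 on the log2 scale (blocked adjusted p = 0.0234, without the block 0.0970). It read 4.82, 4.72 and 4.60 in nicotine-treated LnCaP, against 4.45, 4.30 and 4.30 in untreated LnCaP, a mean signal under 4.83. The other 2 HRK probe sets gave 0.10 and -0.14. For the average over both lines the block called ENDOG, a mitochondrial nuclease, at -0.29 (blocked adjusted p = 0.0413, without the block 0.0997), beside 448 calls on the array (2.01%). In LnCaP the block called 3.8% of all probe sets.

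Between the treated lines 31 of the 61 were called, 20 higher and 11 lower in LnCaP, beside 46.2% of all probe sets (23.8% higher, 22.4% lower). Between the untreated lines 30 were called, 18 higher and 12 lower, beside 43.7% (22.8% higher, 20.9% lower), so the totals were near the array's share. These calls came from 20 genes in treated and 19 in untreated cells. BNIP3, a BH3-domain protein that acts in mitophagy, differed most, by 2.50 ± 0.11 (SE, log2) in treated cells (limma adjusted p = 3.25e-09) and by 2.80 ± 0.11 in untreated cells (1.22e-09). CASP8, the protease that cleaves BID, was higher in LnCaP on 213373_s_at by 1.97 ± 0.12 in treated and 1.76 ± 0.12 in untreated cells. BNIP3L, the paralog of BNIP3, was higher by 1.30 ± 0.12 in treated cells on 221479_s_at. Its untreated means were 11.01 log2 units in LnCaP and 9.89 in 22RV1. VDAC1, a channel of the outer mitochondrial membrane, was higher by 1.14 ± 0.09 in untreated cells on 217140_s_at. Its treated means were 11.42 log2 units in LnCaP and 10.44 in 22RV1.

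Of the 19 probe sets of apoptosome and caspase genes, 3 were called higher and 6 lower in LnCaP, in treated and in untreated cells alike. Of all probe sets, 23.8% were called higher and 22.4% lower in treated cells, and 22.8% and 20.9% in untreated cells. The total of 9 of 19 was near the array's 46.2% and 43.7%, and the split by direction was not tested. The 9 calls came from 6 genes in treated and 5 in untreated cells, so they are not 9 separate results. APAF1, the scaffold of the apoptosome, gave -1.62 ± 0.10 in treated and -1.30 ± 0.10 in untreated cells on 204859_s_at. The gap was not uniform over its probe sets. On 211554_s_at the means in treated cells were 6.31 log2 units in LnCaP and 7.21 in 22RV1. On 211553_x_at they were 4.89 and 4.97. Both of these probe sets were also lower in untreated LnCaP than in untreated 22RV1. ENDOG gave -1.47 ± 0.09 in treated and -1.42 ± 0.09 in untreated cells. HTRA2, a mitochondrial protease that antagonises caspase inhibitors, gave -1.40 ± 0.13 in treated and -1.23 ± 0.13 in untreated cells. Outside those 19 probe sets, BAG1, a co-chaperone first found as a BCL2 partner, gave -1.60 ± 0.26 in treated and -1.55 ± 0.26 in untreated cells. LMNB1, a nuclear lamina protein that caspases cut and also outside the 19, gave -1.09 ± 0.23 in treated and -1.16 ± 0.23 in untreated cells.

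The genes whose pattern was most like that of BID 204493_at over the 12 arrays were PHKB, BNIP3, NUDT2, PRKD1 and VPS37C, with Pearson correlations of 0.996 to 0.997. The arrays fall into 2 clusters by line, so these values describe the gap between the lines. Within the 6 arrays of a line the correlations were 0.46 to 0.87 in LnCaP and 0.68 to 0.88 in 22RV1 cells.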

How the data were processed

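Gene expression was measured in 12 samples on Affymetrix arrays; RNA was isolated with TRIzol and labelled as biotinylated cRNA, per the labels' protocols. The values are the log2 expression values deposited by the authors, 1 per probe set, with array medians of 6.61 to 6.71; how background and array differences were treated is not stated in the labels or the file, and the log base was read from their range. No further normalization was applied. Of 22277 probe sets, 19070 had 1 gene symbol in the platform annotation, 1043 several and 2164 none. A group-means model on all 12 arrays was tested with lmFit and eBayes of limma 3.58.1 under R 4.3.3 (Benjamini-Hochberg over all probe sets; call at adjusted p under 0.05; confidence intervals at 95%), after tests on simulated data. The 4 nicotine contrasts were also fitted with the replicate number as a block within each line: same-numbered arrays had correlated deviations in every pair (r = 0.179 to 0.626), a pairing taken from the data and the shared numbers. Arrays 1 and 2 also correlated across numbers (up to 0.257, in LnCaP above the 0.179 of its pair 2), so the numbers separate array 3 more than arrays 1 and 2. Other settings were quantile normalization, median centring, array weights, a variance trend, 1 value per gene, leaving out the dimmest probe sets (mean under 4.83), the other line, each array, or the arrays numbered 3. The members and gene lists were chosen with earlier results of these data known. All member probe sets are reported; of the other apoptosis genes, those called, up to the 8 with the largest change per contrast, are named, plus 2 called only with the block and named after their values were seen. The number of arrays limits the precision. Promoter sequences are from RefSeq.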

Additional observations from a re-analysis of the deposited data

Results flagged for a closer look

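BCL2A1 205681_at was noted because the nicotine array was lower in 3 of 3 same-numbered pairs in LnCaP cells and higher in 3 of 3 in 22RV1 cells. The log2 fold change was -0.14 ± 0.07 (SE) in LnCaP and 0.10 ± 0.07 in 22RV1, a difference of -0.24 (95% confidence interval -0.47 to -0.02). By limma the unadjusted p of this difference was 0.0340 and the adjusted p 0.781, so it did not pass. With the replicate block the adjusted p was 0.411. Its mean signal lay under 4.83 log2 units, among the dimmest of the array.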

How the results depend on the processing

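The count of 0 members called under nicotine held in every setting run for the 2 lines, their average and their difference, including the replicate block, which changed no call of a member. The block across lines, chosen after seeing the data since numbers did not pair the samples there, gave 14 calls in treated and 13 in untreated cells. The counts of 10 probe sets in treated and 12 in untreated cells came from 6 and 8 genes. With 1 value per gene, 4 of 10 genes were called in treated and 7 of 10 in untreated cells, both for the brightest probe set and for the mean. For the mean, MCL1 (limma adjusted p = 0.200) and BCL2 (0.217) did not pass in treated cells, nor BCL2 (0.210) in untreated cells. Leaving out 1 array gave 6 to 11 calls in treated cells, the 6 without 22RV1 nicotine replicate 2, and 8 to 13 in untreated cells. The array's share called in each of these settings is not given beside the counts. They show only how the members' calls moved, not whether members were called more often than the array. BID, BCL2L1 and BCL2L11 222343_at passed in every setting run.

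Calls of single probe sets were lost as follows, and the cause was not tested. BCL2 203685_at in treated cells was lost with only the arrays compared, or without replicate 2 or 3 of LnCaP nicotine or 1 or 2 of 22RV1 nicotine (adjusted p up to 0.131). In untreated cells it was lost with quantile normalization, median centring, without the arrays numbered 3, or without replicate 2 or 3 of untreated LnCaP or 1 or 2 of untreated 22RV1 (up to 0.137). BIK was lost without replicate 2 or 3 of LnCaP or 1 or 2 of 22RV1 of the condition compared (up to 0.141 treated, 0.117 untreated). BAK1 was lost without replicate 3 of untreated LnCaP or 1 or 2 of untreated 22RV1 (up to 0.0855), and BAX 211833_s_at without replicate 1 or 2 of untreated LnCaP (up to 0.0692). BCL2A1 was lost with only the arrays compared, or without replicate 1 or 2 of untreated LnCaP or 1 of untreated 22RV1 (up to 0.0884). BCL2L11 208536_s_at in treated cells was lost without replicate 1 of LnCaP nicotine or 2 of 22RV1 nicotine (up to 0.0591). MCL1 214056_at in treated cells was lost with only the arrays compared, without the arrays numbered 3, or without replicate 2 or 3 of LnCaP nicotine or 1 or 2 of 22RV1 nicotine (up to 0.132).

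MCL1 214057_at in 22RV1 changed sign with array weights (-0.0056) and without 22RV1 nicotine replicate 3 (-0.037), and ran from -0.037 to 0.20 with 1 array left out. The anti-apoptotic median under nicotine in LnCaP was 0.054 without the arrays numbered 3 and -0.046 to 0.057 with 1 array left out, and for the difference between lines 0.024 and -0.074 to 0.029. Between treated lines it was 0.12 with median centring, 0.14 without the dimmest probe sets and 0.022 to 0.082 with 1 array left out. Between untreated lines it was 0.19 with centring, 0.034 without the dimmest probe sets and 0.077 to 0.17 with 1 left out. Centring shifts all genes alike, and without the dimmest probe sets BCL2A1 was not in the list. The pro-apoptotic median with 1 array left out ran from -0.19 to 0.063 for the difference of the nicotine effect and from 0.50 to 0.74 between untreated lines. For the other apoptosis genes the replicate block gave 1 call in LnCaP and 1 for the average, where the fit without it gave 0.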

Other observations

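Among markers of cell types other than prostate epithelium, VWF, an endothelial gene, had group means of 7.89 log2 units in nicotine-treated and 7.33 in untreated LnCaP, against 4.51 in nicotine-treated and 4.11 in untreated 22RV1. The second endothelial gene, PECAM1, lay between 4.19 and 4.72 in all groups on its 3 probe sets. LUM, a fibroblast gene, read 3.37 in nicotine-treated and 3.01 in untreated LnCaP, against 6.64 in nicotine-treated and 6.63 in untreated 22RV1. Their part in the differences between the lines was not tested.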
